A study of Solanum lycopersicum with 2 samples.

Results

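RNA sequencing of tomato (Solanum lycopersicum) leaves recorded transcription at 4512 loci to which the deposited table assigns no gene. The 718 described here are those with a strand, plus or minus, and a span from start to end of at least 300 bp, out of 22315 loci in all. The rule takes them by the missing gene, the strand and the span, and uses no expression value. A locus without a gene may however be listed only because reads of these 2 libraries formed it. A high value in 1 library could then be what brought it in, which bears on the shares of differences and zeros below. The sources used here do not tell how the loci were formed. A further 3754 loci without a gene have no strand, 40 have a strand and a shorter span, and 17803 loci carry a gene. One library came from SlRBZ overexpressing transgenic seedlings (titled OV-5-1) and 1 from wild-type seedlings (CK-1), both from young primary leaves. The sources used here give neither the promoter of the transgene nor the number of plants behind each library, nor the age of the seedlings beyond their stage. With 1 library per genotype no difference has a replicate check, no test was possible, and the values compare these 2 libraries, not the genotypes.

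Transcribed loci outside an annotation can be of several kinds: genes that the annotation missed, long noncoding RNAs, transcripts antisense to a gene, transposon transcripts, or detached pieces of a neighbouring gene such as an unannotated end or intron. Where a library preparation does not mark strand, a spliced aligner can still read the strand of a fragment from the splice signals of the intron it crosses. No source used here tells if these libraries mark strand. The orientation of a locus to its nearest gene describes which kind it may be, and it does not settle it. The loci have no gene names, only identifiers that start with XLOC, and each is given here by its chromosome, strand, start and end as the table has them. The sources used here name no genome build for these coordinates.

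Values are the FPKM that the authors deposited, that is, fragments scaled to a length of 1 kb and to 1 M (mega) mapped fragments. The low values of unstranded loci came in whole steps of 1 fragment, which gave a scaling total of 14.3 M in the overexpressor, 1.91 times the 7.47 M of wild type. At an effective length of 1 kb, a value of 5 FPKM stands for 71 fragments in the overexpressor, with a 95% exact Poisson interval of 3.89 to 6.28 FPKM. In wild type it stands for 37 fragments, with an interval of 3.49 to 6.83 FPKM. At 1 FPKM, the lowest mean that enters below, it is 14 fragments in the overexpressor (0.537 to 1.65 FPKM). In wild type it is 7 fragments (0.377 to 1.93 FPKM). These intervals cover counting error only. The leaf label was checked on 7 photosynthesis genes. RBCS-3B, a small subunit gene of Rubisco, read 18085 FPKM in the overexpressor and 121997 in wild type, and the lowest of the 7 in each library read 305 FPKM (CAB5) in the overexpressor and 5127 (CAB1D) in wild type. RSI-1, the 1 marker of another organ that was measured, read 9.13 FPKM in the overexpressor and 10.1 in wild type.

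The stranded loci without a gene were shorter than gene loci and lay at lower levels. Their spans ran from 300 to 165950 bp, with a median of 1489 bp and quartiles of 775 and 2820 bp, against a median of 4016 bp for gene loci and 372 bp for unstranded loci without a gene. Under 1 kb lay 247 of the 718 (34.4%), against 7.64% of gene loci, and over 10000 bp lay 35 (4.87%), against 11.3% of gene loci. At the limit of the rule, the longest loci left out spanned 292, 294 and 295 bp and the shortest ones kept spanned 300, 304 and 307 bp. The 40 stranded loci under 300 bp read far higher FPKM. Their medians were 139 in the overexpressor and 190 in wild type over the 37 averaging 1 FPKM or more. At the span less the 199 bp offset described below, such loci have little or no effective length. Few fragments can then give a high FPKM, so these values are no measure of abundance beside longer loci.

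**Figure D1:**
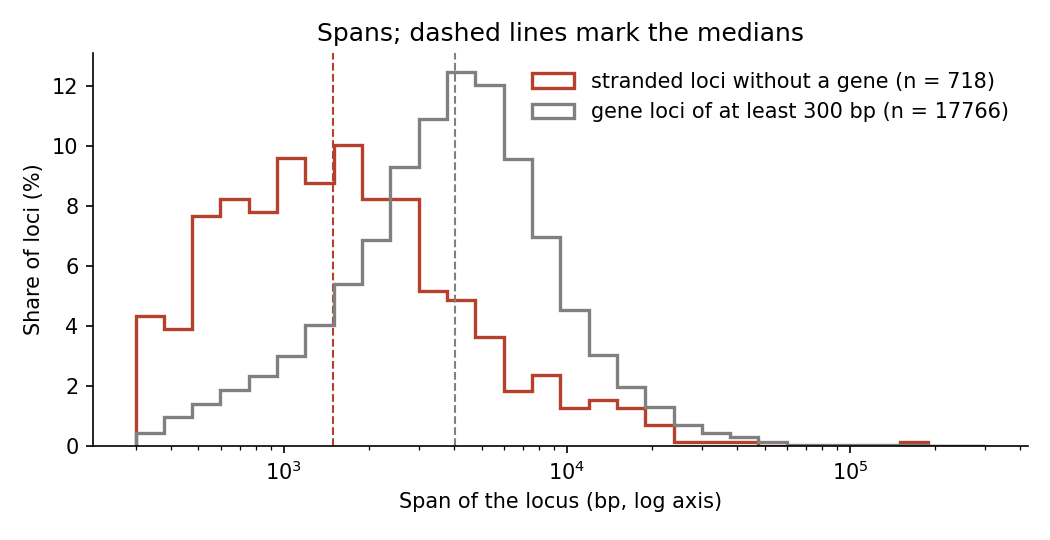
Spans of the 718 stranded loci without a gene (red) and of 17766 gene loci of at least 300 bp (grey), as the share of each set in percent against span in bp on a log axis. The dashed medians lie at 1489 bp and 4024 bp, and both sets overlap over most of their range.

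A span is the stretch from the first to the last base and may hold introns, so it need not be the length behind the FPKM. Read at the span less the 199 bp offset fitted on unstranded loci, low values of unstranded loci (up to 20 fragments, 300 bp or longer) were whole within 0.02 fragments in 88.7% of 1212 cases for the overexpressor library and in 86.9% of 1645 for wild type. Of the low values of stranded loci, 40 of 84 (47.6%) were whole for the overexpressor and 69 of 155 (44.5%) for wild type. The whole values came from loci with median spans of 582 bp in the overexpressor and 680 bp in wild type, while values that were not whole came from loci with medians of 720.5 bp in the overexpressor and 741 bp in wild type. For the stranded loci without whole values no fragment count can be read, and no counting interval is given for single loci.

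Both strands were represented, with 387 loci on plus and 331 on minus. They were spread over all 12 chromosomes, and 8 lay on unplaced sequence, all of these on minus. Chromosome 2 held the most (85) and chromosome 11 the fewest (42). Set against the number of gene loci, chromosome 10 had the highest share, 5.56 per 100 gene loci, and chromosomes 3 and 6 the lowest, at 3.16 and 3.17. Gene-poor stretches held many of them: of those on the 12 chromosomes, 174 (24.5%) had fewer than 10 gene loci within the surrounding 1 Mb, against 8.14% of gene loci. That share was 22.5% for unstranded loci without a gene. In these gene-poor stretches the median span was 1738 bp, against 1308 bp where 50 to 99 gene loci lay in the window. The other sets went the same way, with 5119 against 3919 bp for gene loci and 418 against 353 bp for unstranded loci without a gene.

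The mean over both libraries reached 1 FPKM at 701 of the 718 loci, and levels and differences refer to these 701 unless stated. The median level was 8.82 FPKM in the overexpressor (quartiles 3.91 and 23.3) and 9.08 FPKM in wild type (3.27 and 24.9). The medians of gene loci were 15.6 FPKM (overexpressor) and 15.8 FPKM (wild type). The levels were very uneven: of the summed FPKM of all 718, the 5 most abundant loci held 42.9% (overexpressor) and 50.9% (wild type). Their summed FPKM came to 2.73% of the gene locus sum in the overexpressor, and to 1.89% in wild type. Of the FPKM summed over all loci they held 0.748% in the overexpressor library, but 0.143% for wild type. Most of that sum, in both libraries, lay in the other loci without a gene, so these shares depend mainly on those.

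The most abundant locus was a 366 bp stretch on chromosome 7 (plus strand, 63890812 to 63891177), which read 9769 FPKM in the overexpressor and 14811 in wild type. It ends 13 bp before the gene locus Solyc07g064590.2 on the same strand, which read 18.8 FPKM in the overexpressor and 22.7 in wild type. The locus without a gene thus stood 593 times above its neighbour on the FPKM scale. A second locus, of 695 bp on chromosome 9 (plus strand, 67076490 to 67077184), read 5802 FPKM in the overexpressor and 8880 in wild type. It lies inside Solyc09g097800.2 on the opposite strand, a gene locus at 670.5 FPKM in the overexpressor and 1495 in wild type. If strand was not marked, fragments of such overlapping pairs cannot be told apart. On chromosome 11 a locus of 1570 bp (minus strand, 50298151 to 50299720) read 2000 FPKM in the overexpressor and 10814 in wild type, 5.40-fold lower, and overlaps part of Solyc11g068510.1 on the opposite strand. Another on that chromosome (plus strand, 36707666 to 36709275) read 4751 FPKM in the overexpressor and 6391 in wild type, a difference of −0.43. The fifth, on chromosome 12 (minus strand, 63428194 to 63429749), read 2487 FPKM in the overexpressor and 6155 in wild type, 2.47-fold lower. All 5 were lower in the overexpressor as deposited, but 3 of them lay above 0 when the libraries were scaled to equal sums of gene loci without the 100 most abundant (0.06, 0.05 and 0.24), and all 5 did at equal sums over all loci. Means of 1000 FPKM or more were found at 14 loci, of which 2 (14.3%) were higher by 2-fold or more and 5 (35.7%) lower, against 4.68% and 58.6% of gene loci at that level. The level of 12 of the 14 was at least 10 times that of the nearest gene locus. As the 14 were picked for their level and the median mean of gene loci was 16.3 FPKM, that count largely follows from the choice. Gene loci at that level were not counted in this way. Of the 14, 11 lay within 1 kb of the nearest gene locus or overlapped it, and 7 lay upstream on the same strand. Of all 718 these shares were 45.8% and 27.7%.

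The 3 longest loci are of different kinds. The 165950 bp locus on chromosome 9 (plus strand, 201835 to 367784) overlaps 10 gene loci and read 38.2 FPKM in the overexpressor and 13.7 in wild type, 2.67-fold higher. A 38721 bp locus on chromosome 8 (minus strand, 7691621 to 7730341) stands 57068 bp from the nearest gene locus and read 614 FPKM in the overexpressor and 1032 in wild type. The third, of 34657 bp on chromosome 5 (minus strand, 41166473 to 41201129), read 2.36 FPKM in the overexpressor and 11.7 in wild type, 3.78-fold lower. The first was higher and the others were lower as deposited, and at equal sums over all loci the second and the third lay above 0.

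Each difference is the log2(FPKM + 1) value of the overexpressor less that of wild type; this scale understates the change of low loci, and folds are on it. Among the 701, 136 loci (19.4%) were higher in the overexpressor by 2-fold or more, against 14.4% of all loci, 11.6% of gene loci and 27.3% of unstranded loci without a gene. Lower by as much were 115 (16.4%), against 15.2% of all loci, 15.0% of gene loci and 15.6% of unstranded loci without a gene. The median difference was 0.05, with quartiles of −0.67 and 0.72, beside −0.05 for gene loci (−0.60 and 0.47) and −0.02 for all loci. The split followed the scaling. It was 171 higher and 91 lower at equal upper quartiles, and 241 and 51 at equal sums without the 100 most abundant gene loci. At equal sums over all loci, where other loci without a gene hold most of the sum, it was 667 and 11. Under each of these 3 scalings and at equal medians the median of the stranded loci lay 0.08 to 0.10 above that of gene loci, against 0.10 as deposited. Each scaling multiplies every overexpressor value by 1 factor and moves both medians nearly alike, so this gap could hardly change. At like level the gap went both ways. The medians were 0.41 at 1 to 5 FPKM and −0.17 at 5 to 20 FPKM, against 0.45 and 0.03 for gene loci. At 20 to 100 and 100 to 1000 FPKM they were −0.13 and −0.21, against −0.20 and −0.57. From 1000 FPKM upwards it was −0.68 against −1.34. The share of higher loci differed by span and level. Among loci of 300 to 1000 bp it was 21.6%, with 17.4% lower, and gene loci of that span gave 21.4% and 17.0%. From 1000 to 3000 bp it was 19.3% with 17.2% lower, against 16.4% and 17.0% of gene loci. From 3000 to 10000 bp, 16.2% were higher and 11.5% lower, against 8.73% and 14.4% of gene loci, and over 10000 bp 17.6% and 20.6% of 34 loci, against 6.63% and 12.0%. Both shares were thus close to those of gene loci under 1000 bp, while from 3000 bp upwards the share of higher loci was above that of gene loci of like span. By level, 30.5% of loci between 1 and 5 FPKM were higher and 8.18% lower, against 26.5% and 6.30% of gene loci. At that level, where counting error is widest, lay 67 of the 136 higher loci. Between 5 and 20 FPKM, 14.9% were higher and 19.6% lower, against 10.2% and 8.57% of gene loci. Between 20 and 100 FPKM, 12.9% were higher and 17.9% lower, against 7.36% and 18.0% of gene loci, and from 100 to 1000 FPKM, 15.4% and 25.0%, against 6.33% and 36.8%.

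**Figure D2:**
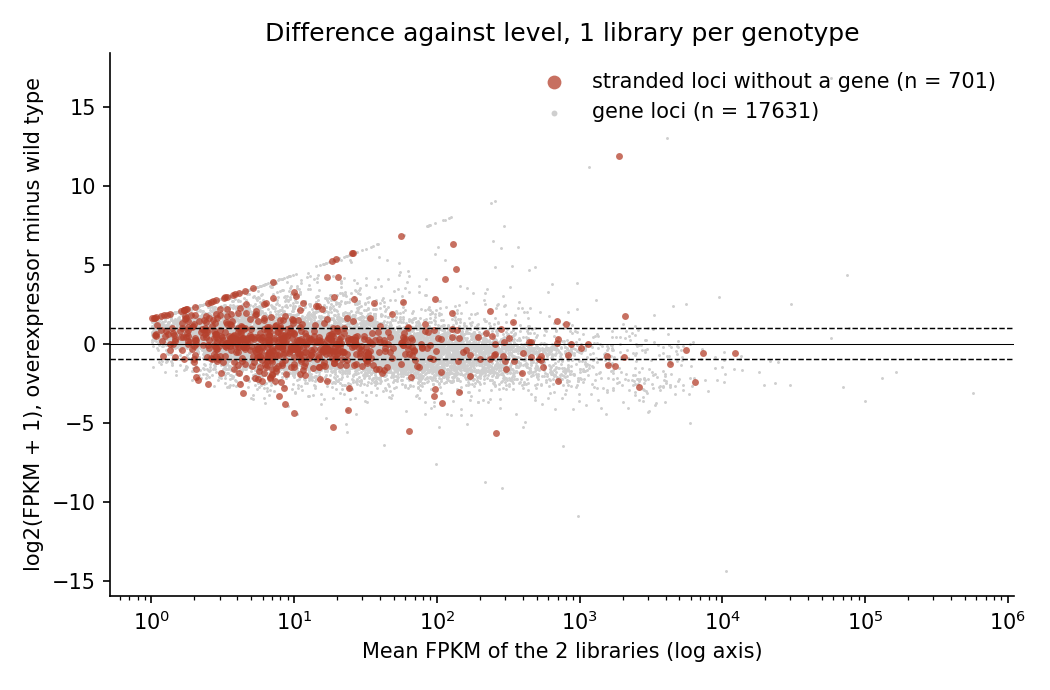
Difference in log2(FPKM + 1), overexpressor minus wild type, against the mean FPKM of both libraries on a log axis, for 701 stranded loci without a gene (red) over 17631 gene loci (grey); dashed lines mark 2-fold. The points along the upper slanting edge are loci at or near 0 in wild type, and the red point at 11.87 is the chromosome 7 locus listed at 0 there.

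The loci with the largest positive differences, among those above 0 in both libraries, lay on 7 chromosomes. On chromosome 2 a locus of 1187 bp (plus strand, 36362596 to 36363782) read 259 FPKM in the overexpressor and 2.32 in wild type, 78.1-fold higher. It ends 102 bp before Solyc02g076630.1 on the same strand, which itself read 4.10 FPKM in the overexpressor and 0.392 in wild type, so both stood higher. On chromosome 3 a locus of 1466 bp (plus strand, 12258769 to 12260234) read 264 FPKM in the overexpressor and 9.20 in wild type, 26.0-fold higher. Its nearest gene locus, 8435 bp away, read 2.74 FPKM in the overexpressor and 5.01 in wild type, the other direction. On chromosome 10 a locus of 1045 bp (minus strand, 21536548 to 21537592), 45109 bp from any gene locus, read 216 FPKM in the overexpressor and 11.5 in wild type, 17.4-fold higher. Long loci were among them too, such as the 18416 bp locus on chromosome 4 (minus strand, 54274450 to 54292865), at 39.5 FPKM in the overexpressor and 1.18 in wild type. The 7404 bp locus on chromosome 9 (plus strand, 60054804 to 60062207) read 33.2 FPKM in the overexpressor and 0.869 in wild type, and the 3794 bp locus on chromosome 1 (plus strand, 14787358 to 14791151) read 19.1 FPKM in the overexpressor and 1.52 in wild type. The chromosome 1 locus is the one farthest from a gene locus of all 718, at 794972 bp. A 1312 bp locus on chromosome 7 (plus strand, 2359168 to 2360479) read 18.9 FPKM in the overexpressor and 1.10 in wild type, while the gene locus ending 82 bp before it, Solyc07g007700.1, read 12.6 FPKM in the overexpressor and 26.5 in wild type. The pair differed in direction, by 3.24 and −1.02. The eighth, inside Solyc10g081980.1 on the opposite strand (chromosome 10, minus strand, 62222796 to 62223253), read 10.3 FPKM in the overexpressor and 0.000188 in wild type, a level under that of 1 fragment. Its host read 40.5 FPKM in the overexpressor and 2.41 in wild type, so the pair of overlapping loci were both higher. Each scaling tried multiplies the overexpressor by 1.01 to 7.59, so it could only enlarge these 8 differences.

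In the other direction, the largest difference was at a 556 bp locus on chromosome 12 (minus strand, 2359801 to 2360356), which read 9.04 FPKM in the overexpressor and 509 in wild type, 50.8-fold lower. It lies 1216 bp downstream of Solyc12g009070.1 on the same strand, and that gene locus read 71.9 FPKM in the overexpressor and 1273 in wild type, so both stood lower. Another stranded locus without a gene (plus strand, 2361573 to 2364786) lies inside that gene locus on the opposite strand. There the overexpressor read 1127 FPKM and wild type 468, 2.40-fold higher. This inner locus is not among the 8 and was chosen after its values were seen. A 584 bp locus on chromosome 9 (plus strand, 43518415 to 43518998) read 1.78 FPKM in the overexpressor and 127 in wild type, 45.8-fold lower, at 146187 bp from the nearest gene locus. On chromosome 4 a 514 bp locus (minus strand, 54512253 to 54512766) read 3.55e-05 FPKM in the overexpressor, under the level of 1 fragment, and 37.3 in wild type. On chromosome 2 a locus of 898 bp (plus strand, 42712699 to 42713596) read 1.58 FPKM in the overexpressor and 45.8 in wild type, 18.2-fold lower. Its nearest gene locus, Solyc02g085160.1, stood the other way at 6.63 FPKM in the overexpressor and 2.20 in wild type. A pair of loci on chromosome 1 belong here. One (minus strand, 24092866 to 24094371) read 0.287 FPKM in the overexpressor and 16.9 in wild type, and the other (minus strand, 85886304 to 85890645) read 16.8 FPKM in the overexpressor and 174 in wild type. A locus on chromosome 5 (minus strand, 64083502 to 64084945) read 14.2 FPKM in the overexpressor and 205 in wild type, 13.6-fold lower. The last, on chromosome 7 (minus strand, 10507172 to 10508694), read 0.603 FPKM in the overexpressor and 15.1 in wild type. All 8 kept their direction under each scaling. At equal sums over all loci the chromosome 5 locus and the chromosome 1 locus at 85886304 were under 2-fold lower, at −0.92 and −0.44.

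Zeros were unequal between the libraries. Of the 718 loci, 38 (5.29%) were listed at 0 in wild type only, against 2.81% of all loci, 1.71% of gene loci and 7.54% of unstranded loci without a gene. Listed at 0 in the overexpressor only were 2 (0.279%), against 0.179% of all loci, and 2 were at 0 in both. The wild-type library has the smaller scaling total, and its part in these zeros was not tested. Of the 38, 31 read under 10 FPKM in the overexpressor, with a median of 3.79. The highest was an 11063 bp locus on chromosome 7 (minus strand, 58521671 to 58532733), at 3747 FPKM in the overexpressor and listed at 0 in wild type. It lies inside a gene locus of the opposite strand that joins Solyc07g052740.2 and others, which read 144 FPKM in the overexpressor and 133 in wild type. Since an exact 0 can be a failed estimate, no fold is given. The next were a 2120 bp locus on chromosome 8 (plus strand, 1041528 to 1043647) at 111 FPKM and a 307 bp locus on chromosome 4 (plus strand, 4051908 to 4052214) at 51.4 FPKM in the overexpressor, both listed at 0 in wild type. Without the loci listed at 0 in a library, 104 of 667 were higher (15.6%) and 113 were lower (16.9%). As the zeros lay mostly in wild type, leaving them out takes away mostly higher loci by construction. Gene loci were not recounted in this way, so these shares have no background beside them.

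By chromosome the differences were mostly centred near 0, with medians from −0.26 on chromosome 8 to 0.18 on chromosome 3, apart from chromosome 12. There the median was 0.72, with quartiles of −0.54 and 1.21, and of 42 loci 15 were higher and 6 lower by 2-fold or more, while gene loci of chromosome 12 had a median of −0.09 with 9.36% higher and 16.7% lower. The same chromosome holds the locus with the largest negative difference of all. Chromosome 12 was singled out after its values were seen, and 12 chromosomes were compared. Both directions were found in gene-poor and in gene-rich stretches: 33 of 170 loci with fewer than 10 gene loci per 1 Mb were higher and 27 lower, against 60 and 51 of 330 where 50 to 99 gene loci lay in the window. As shares these are 19.4% higher and 15.9% lower in the gene-poor windows, where gene loci gave 9.65% and 16.1%. In the windows with 50 to 99 gene loci they are 18.2% and 15.5%, and gene loci gave 11.7% and 15.1%.

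**Figure D3:**
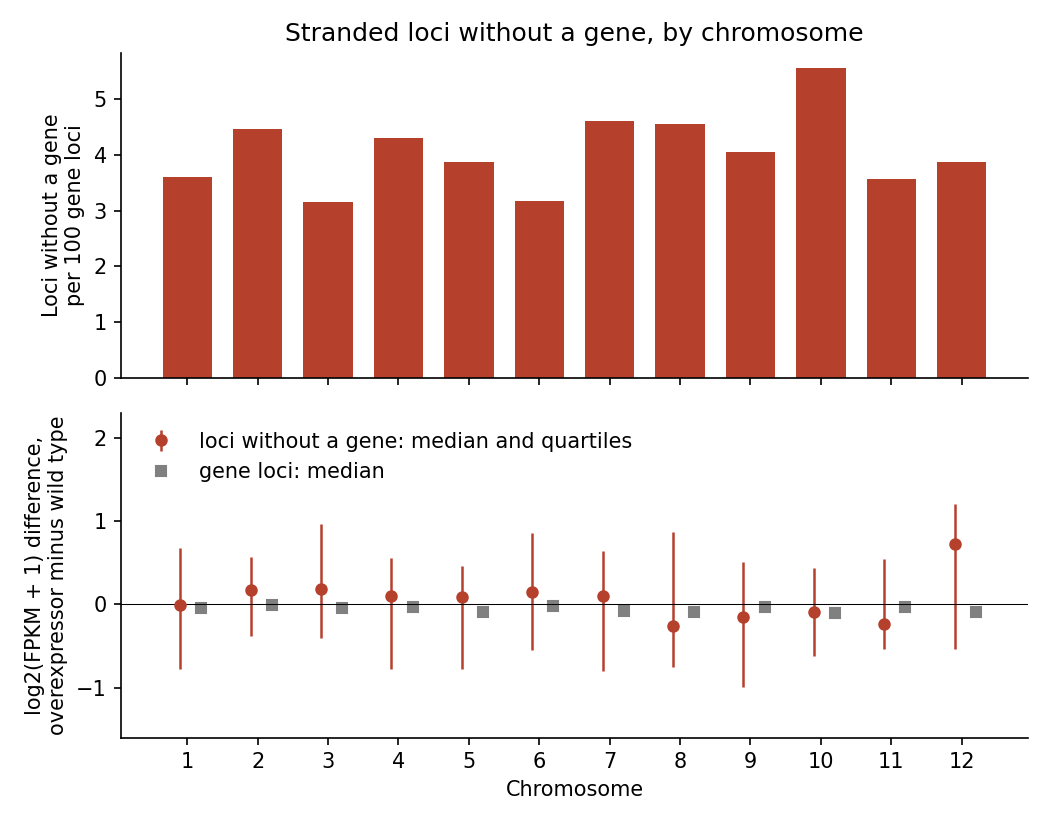
Upper panel, stranded loci without a gene per 100 gene loci on each of the 12 chromosomes; lower panel, their median difference in log2(FPKM + 1), overexpressor minus wild type, with quartiles (red), and the median of gene loci (grey). Chromosome 10 has the highest bar at 5.56, and chromosome 12 has the highest median at 0.72.

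The nearest gene locus was found for each locus from edge to edge, with 0 for overlapping spans. The 718 loci had 598 different nearest gene loci, so some share one. The median distance was 1361 bp (quartiles 103 and 7869 bp), against 2128 bp between a gene locus and its own nearest gene locus. Within 1 kb or overlapping were 329 loci (45.8%), against 32.4% of gene loci and 67.9% of unstranded loci without a gene, and 102 (14.2%) lay more than 20000 bp away, against 9.96% of gene loci. The same strand as the nearest gene locus was found for 431 loci (60.0%), against 49.1% between gene loci. Of the 718, 199 (27.7%) lay upstream on the same strand and 183 (25.5%) downstream on the same strand, against 27.7% and 20.8% of gene loci. Tail to tail (both 3′ ends facing) lay 118 (16.4%), against 32.0% of gene loci, and head to head (both 5′ ends facing) 76 (10.6%), against 14.8%. On the same strand and overlapping were 49 (6.82%), against 0.635% of gene loci, and on the opposite strand and overlapping 93 (13.0%), against 4.01%. Most of the overlapping loci, 39 of the 49 and 68 of the 93, lay wholly inside the span of the gene locus. The nearest loci were nearly all on the gene's strand: of 81 lying 0 to 200 bp from a gene locus without overlap, 73 were on the same strand, whereas of 121 lying more than 5000 and up to 20000 bp away it was 68. Between gene loci 0 to 200 bp apart, 164 of 880 were on the same strand.

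**Figure D4:**
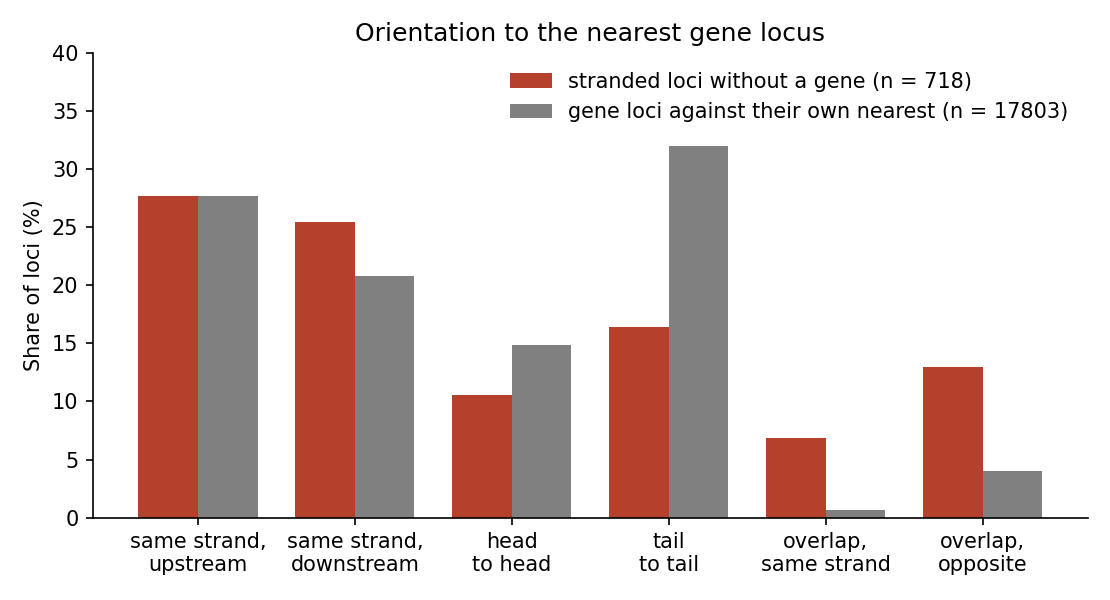
Share of loci in percent by orientation to the nearest gene locus, for 718 stranded loci without a gene (red) and for 17803 gene loci against their own nearest gene locus (grey). Tail to tail pairs take 16.4% of the red set and 32.0% of the grey set, and overlaps on the opposite strand take 13.0% and 4.01%.

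Levels differed with orientation. The loci overlapping a gene locus on the opposite strand were the lowest, with medians of 4.33 FPKM in the overexpressor and 3.76 in wild type, followed by those overlapping on the same strand at 5.21 FPKM in the overexpressor and 4.85 in wild type. The highest medians were those of tail to tail loci, 12.5 FPKM in both, and of same-strand upstream loci, 11.8 FPKM in the overexpressor and 12.8 in wild type. Overlapping loci stood mostly under their neighbour: the mean was above that of the gene locus at 12 of 49 pairs on the same strand and at 19 of 84 on opposite strands, against 97 of 197 for same-strand upstream loci. In all, 60 of 697 pairs had a locus without a gene at 10 or more times the level of its neighbour, and in 100 pairs the neighbour was at 10 or more times its level. The most abundant locus of each remaining orientation gives the range. Downstream on the same strand, a 3113 bp locus on chromosome 8 (minus strand, 1497072 to 1500184) read 667 FPKM in the overexpressor and 4520 in wild type, 6.77-fold lower, beside Solyc08g006940.2 at 34.4 FPKM in the overexpressor and 20.4 in wild type. Head to head, a 4371 bp locus on chromosome 9 (minus strand, 59629713 to 59634083) read 304 FPKM in the overexpressor and 285 in wild type. Within a gene locus of the same strand, a 1611 bp locus on chromosome 1 (plus strand, 79747299 to 79748909) read 976 FPKM in the overexpressor and 2560 in wild type, 2.62-fold lower, whereas its host, which joins 2 genes, read 483 FPKM in the overexpressor and 279 in wild type. At equal sums over all loci the chromosome 8 and chromosome 1 loci lay above 0 (0.16 and 1.53).

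Both loci averaged 1 FPKM or more in 697 pairs, of which 403 (57.8%) differed in the same direction as the nearest gene locus, against 52.2% of pairs of gene loci. The share was highest for pairs at short distance. From 0 to 200 bp, 55 of 81 pairs had the same direction, with Pearson's r of 0.54 and Spearman's rho of 0.51 across loci, whereas gene loci at that distance gave 427 of 855 pairs and 0.04 and 0.01. Beyond 200 and up to 1000 bp, 64 of 103 pairs had the same direction and r was 0.16. The next distances, up to 5000 bp, gave 86 of 160 and 0.06, and those up to 20000 bp gave 62 of 119 and −0.03. Beyond 20000 bp it was 54 of 101, with r of 0.13, so r did not fall evenly with distance. Gene loci beyond 200 and up to 1000 bp apart gave 2061 of 3983 and r of 0.05. Up to 5000 bp they gave 3420 of 6417 and 0.11, and up to 20000 bp 1837 of 3639 and 0.05. Beyond that they gave 903 of 1753 and 0.02. Overlapping pairs gave 82 of 133 and r of 0.26, and overlapping gene loci 468 of 812 and 0.31. These coefficients describe pairs that share the same 2 libraries, and some loci share a neighbour, so they carry no test. Within 1 kb on the same strand the values were alike on both sides of the gene: 51 of 79 pairs upstream and 48 of 69 downstream had the same direction, with r of 0.45 and 0.37. Gene loci so placed gave 534 of 1017 and 433 of 828, with r of 0.09 and 0.05. Tail to tail within 1 kb, 18 of 33 pairs had the same direction with r of 0.38, against 1355 of 2693 and 0.02 for gene loci. Head to head there were only 3 such pairs.

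**Figure D5:**
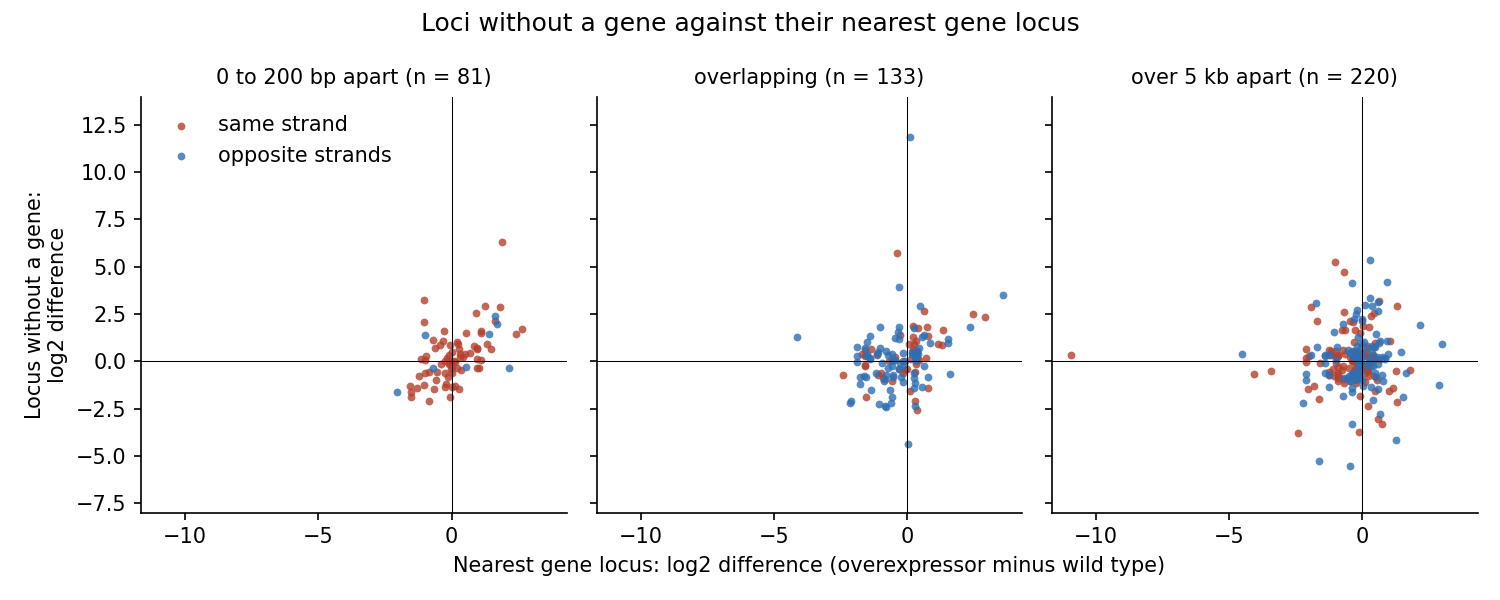
Difference in log2(FPKM + 1), overexpressor minus wild type, of each stranded locus without a gene (vertical axis) against that of its nearest gene locus (horizontal axis), for pairs 0 to 200 bp apart (n = 81), overlapping (n = 133) and over 5 kb apart (n = 220), on the same strand (red) or opposite strands (blue). The left panel slopes upward, with r of 0.54, and the right panel has no visible slope.

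At 0 to 200 bp, 11 pairs had both loci at least 2-fold higher, 6 had both at least 2-fold lower and 3 were 2-fold in opposite directions, of 81 pairs. Gene loci at that distance gave 21, 38 and 31 of 855 pairs. The most abundant of the loci higher together with their neighbour was on chromosome 11 (minus strand, 2950412 to 2953397), where a 2986 bp locus read 3199 FPKM in the overexpressor and 967 in wild type, and the gene locus 10 bp downstream, joining Solyc11g008760.1 and Solyc11g008770.1, read 10.6 FPKM in the overexpressor and 0.846 in wild type. It was chosen after its values were seen. Beyond 200 and up to 1000 bp, 0 pairs were both higher, 4 both lower and 4 opposite, of 103. From there up to 5000 bp it was 7, 6 and 8 of 160. Gene loci at these distances gave 36, 103 and 104 of 3983 pairs, and 116, 189 and 187 of 6417. The 3 largest opposite differences lay 1130 bp or more apart. A 7445 bp locus on chromosome 10 (plus strand, 45927376 to 45934820) read 4.84 FPKM in the overexpressor and 29.3 in wild type. Solyc10g050750.1, 3849 bp away and tail to tail, read 117 FPKM in the overexpressor and was listed at 0 in wild type. At equal sums over all loci the difference of the locus without a gene, −2.38 as deposited, was 0.32. A 7619 bp locus (chromosome 5, minus strand, 30168400 to 30176018) and a 334 bp locus (30180486 to 30180819) both have Solyc05g023990.1 as nearest gene locus, at 1130 and 13216 bp. The longer one read 26.3 FPKM in the overexpressor and 4.96 in wild type, and the shorter one 171 FPKM in the overexpressor and 22.7 in wild type. Their neighbour read 2.49 FPKM in the overexpressor and 12.3 in wild type, the opposite direction.

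The nearest gene locus was named by symbol alone for 29 of the 718 loci. Gene loci that join a symbol with a Solyc identifier were not counted. An example is the gene locus of Solyc10g054790.1 and XIP1-1-ALPHA on chromosome 10. The locus inside it (plus strand, 51447252 to 51471836) read 12.6 FPKM in the overexpressor and 33.7 in wild type. Of these, 16 averaged 1 FPKM or more and lay within 5 kb or overlapped, and 8 of the 16 differed by at least 2-fold, against 36.0% of all 481 stranded loci without a gene so placed. The 8 were chosen after their values were seen. A 449 bp locus on chromosome 10 (plus strand, 48253996 to 48254444), 380 bp downstream of FSM1, a gene of a small SANT/MYB-type protein known from early fruit growth, read 1.40 FPKM in the overexpressor and 15.5 in wild type. FSM1 itself read 26.2 FPKM in the overexpressor and 161 in wild type, so the locus was 6.88-fold lower and FSM1 5.97-fold lower. Upstream of TFT9, a 14-3-3 protein gene, a pair of loci on chromosome 7 (plus strand, 59054194 to 59055842 and 59056080 to 59057571) read 22.0 and 38.6 FPKM in the overexpressor, against 170 and 106 FPKM in wild type. TFT9 read 129 FPKM in the overexpressor and 273 in wild type, and all 3 stood lower by 2-fold or more. Antisense to HRBP1, a locus on chromosome 9 (plus strand, 65191454 to 65193415) read 4.53 FPKM in the overexpressor and 11.8 in wild type, and HRBP1 read 79.2 FPKM in the overexpressor and 268 in wild type. Opposite in direction to its neighbour was a locus on chromosome 11 (minus strand, 36381903 to 36382989) at 20.6 FPKM in the overexpressor and 44.6 in wild type, 3330 bp from SLARF/XYL1, which read 29.6 FPKM in the overexpressor and 3.17 in wild type. Beside IMPCHASE, at 32.0 FPKM in the overexpressor and 67.5 in wild type, a locus 131 bp downstream (chromosome 8, plus strand, 56477533 to 56479284) read 3.23 FPKM in the overexpressor and was listed at 0 in wild type. The remaining pair overlap their gene locus, as the HRBP1 one does. On unplaced sequence, a locus on the strand opposite to TAL (minus strand, 5777857 to 5779566) read 2.31 FPKM in the overexpressor and 7.74 in wild type, with TAL at 38.6 FPKM in the overexpressor and 32.3 in wild type. On the strand of N6, a locus on chromosome 1 (minus strand, 2961953 to 2962564) read 0.510 FPKM in the overexpressor and 3.57 in wild type, with N6 at 82.4 FPKM in the overexpressor and 75.8 in wild type. Of the 8 loci, 4 thus differed in the direction of their gene locus and 4 in the other. Among the latter, TAL and N6 themselves differed by only 1.19-fold and 1.09-fold.

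Loci without a gene also lay next to each other or overlapped. Of 81 adjacent pairs that overlapped or lay no more than 1 kb apart, 63 were on the same strand. Of 61 such pairs in which both loci averaged 1 FPKM or more, 42 differed in the same direction, 6 were both at least 2-fold higher, 3 both lower and 0 opposite, with r of 0.70 and rho of 0.59 across pairs. The 17 pairs on opposite strands gave 9 in the same direction and r of 0.15. Most pairs on opposite strands overlap and most on the same strand do not, so these sets differ in distance too. On chromosome 1 a 17483 bp locus (plus strand, 64534406 to 64551888) and one starting 103 bp after it (64551992 to 64553662) read 9.00 and 39.3 FPKM in the overexpressor and were both listed at 0 in wild type. The chromosome 1 locus starting at 85886304, with its large negative difference, has such a neighbour too, 104 bp away (85879233 to 85886199), which read 20.1 FPKM in the overexpressor and 64.9 in wild type. Whether adjacent loci of this kind are pieces of 1 transcript was not tested, so the 718 may not be independent of each other.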

How the data were processed

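The authors deposited 1 table of FPKM per locus and library, per the file headers, with the columns tied to samples by title and 0 columns of values untied. Reads were aligned across introns with TopHat, the 1 tool in the submitters' processing notes. The sources used here give no version of it, no assembler, counter, annotation or genome build, and no strandedness of the libraries.

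Members were the loci with no gene, a strand and a span of at least 300 bp. They and the lists were chosen with earlier results of these data known. Each difference was the log2(FPKM + 1) value of the overexpressor less that of wild type. Loci averaging 1 FPKM or more entered, and 2-fold was the limit for a call. No test was run, with 1 library per genotype. Orientation and calls were checked on simulated data. Whole fragments were fitted on unstranded loci as FPKM times (span less an offset) times a total. Where gene loci overlapped a member, the one with the longest overlap was taken as nearest. Gene-rich windows were 1 Mb wide, centred on the locus.

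Loci named in the text were, among members above 0 in both libraries, the 8 largest differences each way, the 5 highest means, the 3 longest spans, the 3 highest listed at 0 in 1 library, the 3 largest opposite differences to the nearest gene locus (ranked by the smaller of both differences) and the most abundant of each of 6 orientations. Others are said to be chosen after seeing values. Alternatives were the pseudocount, the filter, 4 scalings, the span limit and the choice of nearest gene. Python 3.11.15, pandas 2.3.3 and numpy 2.4.6 were used. No genome of the files' build was at hand, so no sequence is shown.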

Additional observations from a re-analysis of the deposited data

How the results depend on the processing

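The counts and the median of the stranded loci without a gene followed the scaling and the low-value settings. The count of higher loci, 136 as reported, was 65 at a pseudocount of 5, 69 at a filter of 5 FPKM, 241 at equal sums of gene loci without the 100 most abundant, 667 at equal sums over all loci and 71 without loci overlapping or within 1 kb of a gene locus (18.6% of 382, against 19.4% of 701). The count of lower loci, 115 as reported, was 76 at that pseudocount, 51 and 11 under these 2 scalings, and 61 without loci overlapping or near a gene locus (16.0%, against 16.4%). These last 2 counts are smaller because fewer loci entered. The median difference, 0.05 as reported, was −0.19 at the filter of 5 FPKM, 0.28 at equal upper quartiles, 0.67 at equal sums without the 100 most abundant and 2.85 at equal sums over all loci. Equal medians, smaller pseudocounts, no filter, other span limits, and leaving out loci at 0, overlapping loci or unplaced sequence kept the counts within 1.5 times. Each scaling raises the overexpressor (by 1.01 to 7.59 times), so no higher call could be lost to one. Of the 115 lower loci 91, 112, 51 and 11 were called at equal upper quartiles, equal medians, equal sums without the 100 most abundant and equal sums over all loci. The counts by strand, distance and shared direction stayed within 1.5 times (388 to 455, 290 to 357 and 362 to 425). The exclusions of loci at 0, overlapping, near a gene locus or on unplaced sequence were chosen after seeing the data. No paired analysis was possible because each genotype has 1 library.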
